A study of Mus musculus with 4 samples.

Results

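Mitosis and kinetochore genes are the 45 genes given by name for cyclin-dependent kinase 1 and its cyclins, the spindle checkpoint, the kinetochore, mitotic motors and cell division. All 45 were found by symbol among the 55416 gene identifiers of the tables, and all 45 were among the 14271 genes tested. Their expression was compared between small intestinal organoids grown from E15.5 embryos (2 libraries) and from adult mice aged 4 to 8 weeks (2 libraries). Both groups were C57BL/6, started from isolated gut epithelium, carried no labelled allele or treatment, and were kept in IntestiCult, a commercial organoid medium. Organoids hold epithelium grown in culture, without the surrounding tissue. The labels do not say how many animals or cultures stand behind a library, so the p-values below reflect how far these libraries spread, possibly for technical reasons alone.

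When a cell enters mitosis, cyclin B switches on CDK1, the chromosomes condense, and kinetochores assembled on the centromeres attach them to the spindle. The spindle checkpoint holds back the anaphase-promoting complex until every kinetochore is attached, after which securin and the cyclins are destroyed and the cell is cut apart by an actomyosin ring placed by the spindle midzone. These genes are transcribed mostly late in the cell cycle, so in the intestine their transcripts are known as marks of the dividing crypt cells, and in organoids of the dividing buds or spheroids. In bulk RNA, fewer dividing cells and less RNA per dividing cell cannot be told apart.

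Libraries held 10862147 to 13061585 estimated counts. Mitochondrial transcripts took 17.5% to 17.6% of adult and 6.98% to 7.82% of fetal counts, which bears on any scaling by library total. Levels are given as CPM, counts scaled to a common library size, and as TPM, which also divides by transcript length. CPM below was scaled with TMM factors, which are set by the bulk of genes, and fold changes with plain library totals are given beside them. The median gene had a log2 fold change (fetal over adult) of 0.01 with TMM and of 0.25 with library totals. All 8 intestinal epithelial markers had counts in every library and were tested, 4 were higher and 3 lower, and they summed to 4305 to 4312 CPM in adult and 6797 to 6826 CPM in fetal libraries, the keratins Krt8 and Krt19 having the highest means over all libraries. Of the mesenchymal markers, 7 of 10 were tested, 6 rose and none fell. The sum of all 10 was 5.07 to 5.81 CPM in adult and 66.9 to 69.0 CPM in fetal libraries, and Col1a2, Col3a1, Dcn, Lum and Twist1 had no adult counts. Summed endothelial, immune and erythroid markers stayed at or under 4.39 CPM in every library, and neuronal and glial markers at 13.9 to 14.2 CPM in adult and 3.07 to 3.19 CPM in fetal libraries. Dissociation stress genes summed to 930.4 to 932 CPM in adult and 663 to 667 CPM in fetal libraries. The part of these other cells and of stress in the results below was not tested.

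All 45 genes were expressed in both kinds of organoid, and single members moved in both directions, most by small amounts. Under TMM 16 of 45 genes were higher in fetal organoids, 16 were lower and 13 were not called (Benjamini-Hochberg adjusted p under 0.05 by the quasi-likelihood test of edgeR). Of all genes tested 66.5% were called, 33.9% higher and 32.7% lower, so the members' 71.1%, 35.6% and 35.6% lie near the background. Among the 7387 genes with a mean of at least 20 CPM, which include every member, 75.8% were called, 37.3% higher and 38.5% lower. In CPM, fetal and adult libraries were free of overlap for 37 of 45 members, beside 82.7% of all genes. Changes of at least 1.5-fold were found in 2 members, the rise of the midzone motor Kif23 and the fall of the spindle motor Kif11, where 36.7% of all genes tested (18.8% higher, 17.9% lower), and 26.8% of those with at least 20 CPM, were called at that size. The members' median log2 fold change was -0.05 with TMM.

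Scaling moved the balance of the calls. With library totals 31 members were called higher and 4 lower, where 48.8% of all genes were called higher and 20.9% lower (57.5% and 22.2% of those with at least 20 CPM), and the members' median log2 fold change was 0.20. The 16 genes higher with TMM were also higher with library totals, as were all 4833 genes called higher with TMM, so this is not particular to the members. Kif11, Cdc25b, Nusap1 and Mki67 were lower with both, as were 20.9% of all genes tested, and the last 3 of them were not called on TPM. On log2(TPM + 1) with limma 33 members were higher and only Kif11 was lower, beside 49.6% and 12.8% of all genes, with medians of 0.38 for the members and 0.36 for all genes. The members' median thus stood near that of all genes on each of these 3 scales. With the mitochondrial genes and the 20 most counted genes taken out of the totals, 16 members were higher and 13 lower, close to TMM. Over the 16 alternatives to the TMM test, 11 genes were called higher in every one: Ccnb1, Plk1, Tpx2, Bub3, Mad2l1, Cdc20, Cdca8, Kif22, Kif23, Anln and Ect2. Kif11 was the 1 member called lower in every one. The alternatives include library totals and the limma fits on TPM, where most called genes were higher, so rises keep their call there more easily than falls. The share of all genes called alike in every alternative was not counted.

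**Figure D1:**
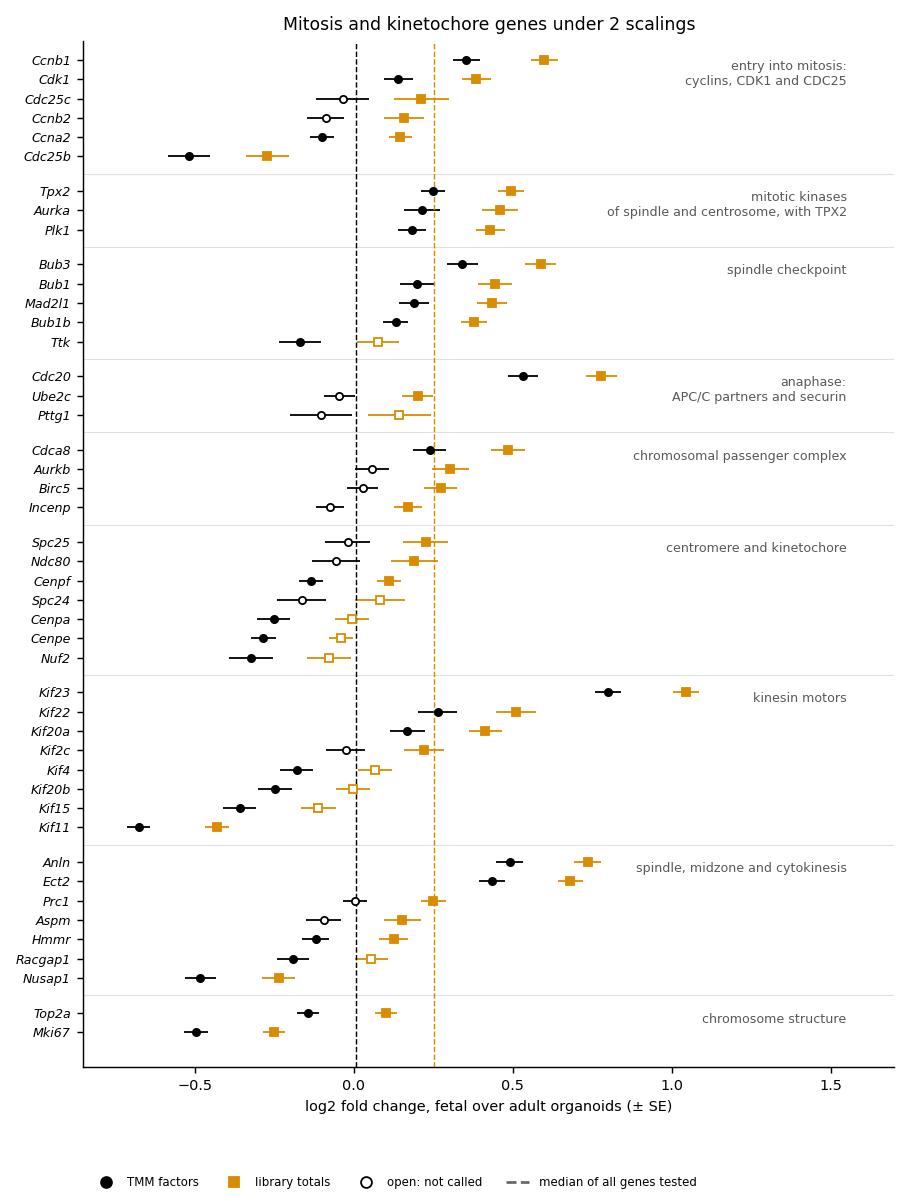
Log2 fold change of each of the 45 genes, fetal over adult organoids, with its standard error (2 libraries per group), by role. Black circles use TMM factors and orange squares library totals, open symbols did not pass the edgeR test, and the dashed lines are the medians of all genes tested, 0.01 and 0.25. Kif23 and Kif11 mark the ends, at 0.80 and -0.68 with TMM.

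Promoter sequence was set beside these changes because late cell cycle promoters are known for CCAAT boxes, bound by NF-Y, and for the cell cycle homology element, read by the DREAM and B-MYB complexes. RefSeq promoters (GRCm38.p6) were matched by symbol for 38 of 45 members. Ccna2, Cdc25c, Tpx2, Aurkb, Incenp, Spc24 and Kif20a were not matched. In the 250 bases before the start, CCAAT, which reads as ATTGG on the other strand, was found in 28 of 38 members (73.7%), against 33.8% of all 32851 promoters in the table and 25 of 37 genes of DNA replication (67.6%). The homology element, searched on both strands as TTTGAA, whose other strand reads TTCAAA, or in its second form TTTAAA, which reads alike on both strands, was found in 19 of 38 members , against 25.2% of all promoters and 18.9% of replication genes. Both kinds of motif stood together in 42.1% of members, 8.78% of all promoters and 10.8% of replication genes. Both motifs occurred among genes of each call. CCAAT was found in 12 of 14 genes that were higher with TMM, 11 of 15 that were lower and 5 of 9 not called, and the homology element in 7, 6 and 6 of them. A member or replication gene was counted if any of its listed promoters held the motif (41 promoters for 38 members). The share of all promoters was counted per promoter, so these shares are not in like units. These are letter matches, not bound sites.

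The last 100 bases before the start are shown for genes that rose (Kif23, Ect2, Aurka and Anln) and genes that were lower with TMM (Kif11, Mki67 and Top2a, of which Top2a was higher with library totals), with both motifs in capitals. The stretch of Ect2 lies before the upstream one of its listed starts, and none of the stretches touches a GENCODE exon. Kif11 and Top2a hold both motifs, Kif23, Ect2 and Aurka hold CCAAT boxes alone in this stretch, Mki67 the homology element alone, and Anln neither. These genes are examples and do not stand for the rest. In the same stretch the homology element was also found in Ccnb1, Cdc20, Cdk1, Plk1 and Kif22, which rose. It was not found there in Nuf2, Nusap1, Cenpe and Racgap1, which were lower with TMM. Each stretch shown is written along the strand of its gene.
Kif23, chr9:61946800-61946899, minus strand: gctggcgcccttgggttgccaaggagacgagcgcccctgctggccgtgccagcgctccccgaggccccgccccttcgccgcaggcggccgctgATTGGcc
Ect2, chr3:27153879-27153978, minus strand: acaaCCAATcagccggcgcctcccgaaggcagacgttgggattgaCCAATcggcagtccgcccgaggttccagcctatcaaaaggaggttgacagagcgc
Aurka, chr2:172370571-172370670, minus strand: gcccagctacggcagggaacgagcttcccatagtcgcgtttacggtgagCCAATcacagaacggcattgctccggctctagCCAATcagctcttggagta
Anln, chr9:22389207-22389306, minus strand: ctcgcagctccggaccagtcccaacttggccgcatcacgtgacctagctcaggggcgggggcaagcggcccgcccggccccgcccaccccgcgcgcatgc
Kif11, chr19:37376282-37376381, plus strand: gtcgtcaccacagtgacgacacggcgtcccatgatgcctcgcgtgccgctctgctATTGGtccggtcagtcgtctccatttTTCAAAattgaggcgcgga
Mki67, chr7:135716380-135716479, minus strand: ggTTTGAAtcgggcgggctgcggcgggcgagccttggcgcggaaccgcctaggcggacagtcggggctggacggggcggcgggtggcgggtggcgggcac
Top2a, chr11:99024190-99024289, minus strand: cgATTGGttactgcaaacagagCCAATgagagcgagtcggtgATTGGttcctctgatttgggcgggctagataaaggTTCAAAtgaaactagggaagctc

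The role groups that follow hold 2 to 8 genes each. With TMM 37.3% of genes with at least 20 CPM were higher and 38.5% lower, so calls in both directions are common at this level. Among the genes that start mitosis, 2 were higher, 2 lower and 2 not called with TMM. Ccnb1, the cyclin B that drives entry, stood at 116 and 115 CPM in adult and 143 and 151 CPM in fetal libraries. It rose by 0.35 ± 0.04 SE on the log2 scale (edgeR, Benjamini-Hochberg adjusted p = 1.16e-05). Its relative Ccnb2 was at 71.4 and 69.7 CPM against 68.9 and 63.8 CPM and was not called (log2 fold change -0.09 ± 0.06 SE). Both adult values lay just above both fetal values for Ccnb2, whereas all fetal Ccnb1 values were above the adult ones. Cdk1, their kinase partner, rose slightly, from 106 and 103 to 112 and 118 CPM (0.14 ± 0.05 SE, edgeR adjusted p = 0.0181), a call lost without adult replicate 2 or without fetal replicate 2 and with the DESeq2 test.

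Cdc25b, the phosphatase that activates CDK1 at the centrosome, fell from 57.3 and 63.0 to 41.1 and 42.9 CPM. The log2 fold change was -0.52 ± 0.07 SE with TMM and -0.27 with library totals, both called, and -0.17 and not called on log2(TPM + 1). Its relative Cdc25c was not called with TMM, at 23.4 and 23.6 against 23.6 and 22.2 CPM, and the groups overlapped. Ccna2, cyclin A of S phase and early mitosis, had the highest TPM of these 6 genes. It was at 256 and 267 CPM in adult and 237 and 251 CPM in fetal libraries, lower with TMM (-0.10) and higher with library totals (0.15), so that its direction rests on the scaling. The TMM call was lost without adult replicate 2 or fetal replicate 1, and also with DESeq2 size factors, upper-quartile factors, totals without mitochondrial and top genes, the DESeq2 test and no filter.

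The mitotic kinases of the spindle pole and Tpx2 were all called higher with TMM, as were 37.3% of genes with at least 20 CPM. Plk1, which acts from centrosome maturation to cell cleavage, was at 107 and 102 CPM in adult and 118 and 120.1 CPM in fetal libraries (log2 fold change 0.18 ± 0.04 SE). Tpx2, which activates Aurora A and nucleates spindle microtubules, rose from 132 and 129 to 154 and 156 CPM (0.25 ± 0.04 SE, edgeR adjusted p = 0.000104). Aurka, Aurora A itself, rose from 63.2 and 63.4 to 71.0 and 75.9 CPM (0.21 ± 0.06 SE), a call lost without fetal replicate 2. Fetal values exceeded adult values in every library for all 3 genes. All 3 were also called higher on TPM and, like every gene called higher with TMM, with library totals.

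Of the 5 checkpoint genes, 4 were called higher and 1 lower with TMM, beside 37.3% and 38.5% of genes with at least 20 CPM. Bub3, the adaptor that brings the BUB kinases to kinetochores, was at 99.5 and 92.5 CPM in adult and 121 and 122 CPM in fetal libraries (0.34 ± 0.05 SE, edgeR adjusted p = 4.20e-05). Mad2l1, which encodes the MAD2 protein that binds CDC20, rose from 100.4 and 95.3 to 112 and 111 CPM. The kinases Bub1 and Bub1b rose by 0.20 and 0.13 on the log2 scale; the Bub1 call was lost without adult replicate 1, and the Bub1b call without adult replicate 1 or fetal replicate 2. Ttk, the MPS1 kinase at the top of the checkpoint, ran the other way with TMM, from 53.5 and 51.7 to 44.7 and 49.0 CPM (-0.17 ± 0.07 SE, edgeR adjusted p = 0.0395). That call was lost without adult replicate 1 or fetal replicate 1 and with upper-quartile factors, totals without mitochondrial and top genes, the DESeq2 test or no filter, and with library totals the value was 0.08 and not called.

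Cdc20, the activator of the anaphase-promoting complex and the target of the checkpoint, rose from 74.3 and 75.2 to 108 and 109 CPM. Its log2 fold change of 0.53 ± 0.05 SE (edgeR adjusted p = 7.32e-07) was the second highest among the 45. The ubiquitin-conjugating enzyme of the same complex, Ube2c, was at 105 and 109 CPM in adult and 101 and 106 CPM in fetal libraries, with overlapping groups. Pttg1, securin, which keeps separase in check, also overlapped, at 23.5 and 20.3 against 20.9 and 20.1 CPM. Within a library, the TPM of Cdc20 over that of Ube2c was 0.475 and 0.450 in adult and 0.700 and 0.670 in fetal libraries, and such a ratio does not depend on the scaling between libraries.

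The chromosomal passenger complex, which corrects wrong attachments and later guides cleavage, moved little. Cdca8, borealin, rose from 73.6 and 73.3 to 84.9 and 88.4 CPM (0.24 ± 0.05 SE, edgeR adjusted p = 0.00129). The other members were not called with TMM: Birc5, survivin and the highest of the 4 by TPM, was at 84.9 and 81.9 against 84.3 and 85.8 CPM. The kinase Aurkb and the scaffold Incenp had log2 fold changes of 0.06 and -0.07. All 4 were called higher with library totals.

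None of the 7 centromere and kinetochore genes was called higher with TMM, and 4 were called lower, beside 37.3% and 38.5% of genes with at least 20 CPM. Nuf2, a subunit of the NDC80 complex that grips microtubules, had 58.4 and 51.9 CPM in adult and 43.5 and 44.9 CPM in fetal libraries (log2 fold change -0.32 ± 0.07 SE with TMM, -0.08 and not called with library totals). Its partners in that complex were not called: Ndc80, Spc24 and Spc25 had log2 fold changes of -0.06, -0.16 and -0.02. Cenpa, the histone variant that marks the centromere, was at 80.6 and 79.5 against 67.1 and 67.4 CPM (-0.25 ± 0.05 SE with TMM, -0.01 with library totals). The giant motor Cenpe, which carries chromosomes to the spindle equator, had 248 and 237 against 194 and 205 CPM (-0.28 with TMM, -0.04 with library totals).

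Cenpf, a large protein of the outer kinetochore, was lower with TMM (-0.14) and higher with library totals (0.11), at 192 and 185 CPM in adult and 169 and 175 CPM in fetal libraries. Its TMM call was lost without adult replicate 1 or fetal replicate 1. The median log2 fold change of the 7 genes was -0.16 with TMM and 0.08 with library totals, below the median of all genes on both scales. On log2(TPM + 1) 4 of the 7 were called higher by limma.

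Kinesin motors spread most widely, with 3 higher, 4 lower and 1 not called. Kif23, the MKLP1 motor that bundles the midzone and positions the cleavage furrow, was at 116 and 109 CPM in adult and 195 and 198 CPM in fetal libraries. It rose 1.74-fold (log2 fold change 0.80 ± 0.04 SE, edgeR adjusted p = 3.56e-09; 0.75 to 0.84 with single libraries left out). Kif11, the Eg5 motor that pushes spindle poles apart, ran from 214 and 214 down to 132 and 136 CPM. It was 1.60-fold lower (log2 fold change -0.68 ± 0.04 SE, edgeR adjusted p = 5.85e-09; -0.71 to -0.65 with single libraries left out). For both motors the groups lay much further apart than the libraries within a group, and all 16 alternatives kept the call.

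Kif15, which can stand in for Eg5 in spindle assembly, was also lower with TMM (119.6 and 112 against 93.3 and 87.5 CPM; -0.36, or -0.11 and not called with library totals). Kif22, a chromokinesin, and Kif20a, the MKLP2 motor of the midzone, rose by 0.26 and 0.17 on the log2 scale, the call of Kif20a being lost without adult replicate 2 or fetal replicate 2. The chromokinesin Kif4 and the midzone motor Kif20b were lower with TMM (-0.18 and -0.25) and not called with library totals (0.07 and 0.00), and Kif4 was also not called without adult replicate 1, without fetal replicate 1 or with the DESeq2 test. Kif2c, which strips microtubules from faulty attachments, was not called (-0.03). For Kif4 the gene length implied by RSEM, the ratio of count to TPM relative to the median gene, was 1.39 and 1.28 in adult and 1.56 and 1.84 in fetal libraries, the largest shift among the 45 genes. Its TPM was 34.8 and 35.8 in adult and 34.9 and 29.6 in fetal libraries, which overlap.

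Of the 7 genes of spindle, midzone and cleavage, 2 rose, 3 were lower with TMM and 2 were not called. Anln, anillin, the scaffold of the contractile ring, rose from 99.9 and 99.1 to 139.6 and 140.0 CPM (0.49 ± 0.04 SE, edgeR adjusted p = 3.94e-07). Ect2, the exchange factor that switches on RhoA at the furrow, rose from 140.2 and 137 to 183 and 192 CPM (0.43 ± 0.04 SE, edgeR adjusted p = 8.44e-07). Racgap1, which joins KIF23 in the centralspindlin complex and recruits ECT2, was at 109.6 and 101 against 92.3 and 92.8 CPM, lower with TMM (-0.19; not called without adult replicate 1) and not called with library totals (0.06). Over the 16 alternatives Racgap1 was called lower in 11 and higher in 2, both of them limma fits on TPM. Its direction thus rests on the scale. The transcript ratio of Kif23 to Racgap1 in TPM was 1.78 and 1.82 in adult and 3.76 and 3.92 in fetal libraries.

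Nusap1, which bundles spindle microtubules near chromosomes, was lower with both scalings, at 101 and 99.2 CPM in adult and 70.9 and 72.8 CPM in fetal libraries (-0.48 ± 0.05 SE with TMM, -0.24 with library totals). Its groups overlapped in TPM, however, at 41.5 and 40.0 against 38.3 and 40.7. Prc1, the microtubule bundler that founds the midzone, was not called with TMM, at 145 and 142 against 144 and 144 CPM (log2 fold change 0.00 ± 0.04 SE). Hmmr, a spindle-pole protein, was at 124 and 129 CPM in adult and 118 and 115 CPM in fetal libraries, lower with TMM (-0.12) and higher with library totals (0.13). Its TMM call was lost without adult replicate 2 or fetal replicate 2, and with totals without mitochondrial and top genes, the DESeq2 test or no filter. Aspm, another pole protein and the member with the lowest TPM, was not called (-0.09).

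Mki67, which coats mitotic chromosomes and is the usual stain for dividing cells, was the most counted member. It was at 1271 and 1232 CPM in adult and 865 and 909.7 CPM in fetal libraries, lower with TMM by a log2 fold change of -0.50 ± 0.04 SE (edgeR adjusted p = 1.33e-07) and with library totals by -0.25. In TPM it was at 154 and 148 against 138 and 142, and limma did not call it (-0.11). Top2a, the topoisomerase that untangles sister chromatids, was at 716 and 686 against 641 and 628 CPM, lower with TMM (-0.14) and higher with library totals (0.10). The ratio of Mki67 to Top2a in TPM was 0.736 and 0.767 in adult and 0.525 and 0.580 in fetal libraries, without overlap.

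Per length, in TPM, levels ran from 9.52 for Aspm to 228 for Top2a as the mean of all 4 libraries. The TPM of every fetal library exceeded that of every adult library for 39 of 45 genes, beside 63.7% of all genes tested and 71.3% of those with at least 20 CPM, on a scale where the median gene was also higher in fetal organoids. The members together took 0.280% and 0.270% of all TPM in adult and 0.377% and 0.371% in fetal libraries. Kif23 gained most in share of the members' summed TPM, with 3.10% on average in adult and 5.77% in fetal libraries, and Mki67 went the other way, with 5.50% and 3.75%. Top2a led in both groups, at 7.32% and 6.79%.

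**Figure D2:**
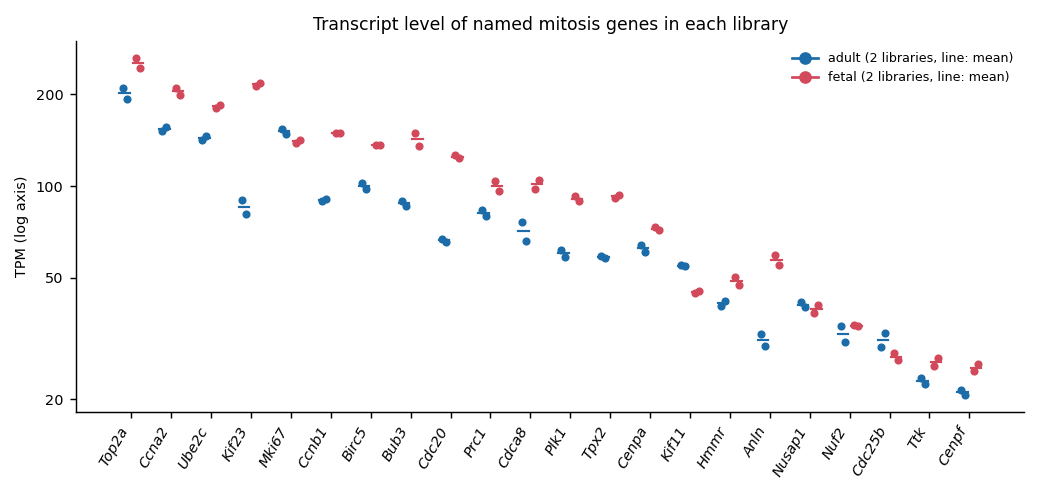
TPM (log axis) of the 22 members named by rule in each of the 4 libraries, adult in blue and fetal in red, with lines at the group means, ordered by mean level. Kif23 moved from 80.7 to 89.7 TPM in adult libraries up to 213 to 218 TPM in fetal ones, and Kif11 stood lower in fetal than in adult libraries.

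TPM ratios between members that share a complex, a step or a motor class were set side by side for 15 pairs. The pairs were chosen after the values were seen, and no test was made of them. Kif23 over Kif11 showed the widest gap, at 1.63 and 1.48 in adult and 4.78 and 4.83 in fetal libraries. Tpx2 over Kif11 was 1.08 and 1.07 against 2.05 and 2.07, for a motor and a protein known to bind it. Anln over Prc1 was 0.393 and 0.375 against 0.571 and 0.570, and Ccnb1 over Ccnb2 1.51 and 1.57 against 1.97 and 2.19. Aurka over Tpx2, an enzyme and its activator that rose together, overlapped between the groups at 0.782 and 0.764 against 0.756 and 0.784. Aurkb over Birc5 overlapped too, at 0.623 and 0.588 against 0.661 and 0.591.

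**Figure D3:**
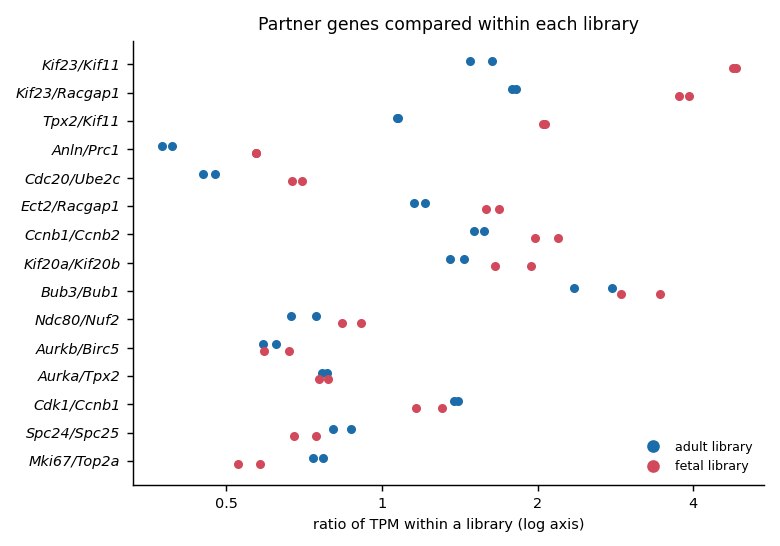
Ratio of the TPM of 2 member genes within each library (log axis), adult libraries in blue and fetal libraries in red. Kif23 over Kif11 separates the groups most (1.48 to 1.63 against 4.78 to 4.83), and Aurka over Tpx2 and Aurkb over Birc5 overlap.

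Transcripts of DNA replication, the phase before mitosis, were set beside them. Of 46 genes of S phase, 29 were higher and 6 lower with TMM, with a median log2 fold change of 0.31, and 38 and 2 with library totals (median 0.55). Cdc6, a loader of the replicative helicase, rose from 27.4 and 25.4 to 51.0 and 53.2 CPM. Prim1, the primase subunit, was lower with both count scalings and not called on TPM, at 83.5 and 83.8 against 62.3 and 62.5 CPM. The summed TPM of the mitosis genes over that of the replication genes was 1.22 and 1.22 in adult and 0.991 and 1.00 in fetal libraries, so that within each library mitotic transcripts stood lower beside replication transcripts in fetal organoids. No test of this difference was made, since the lists were chosen with results of these data known.

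**Figure D4:**
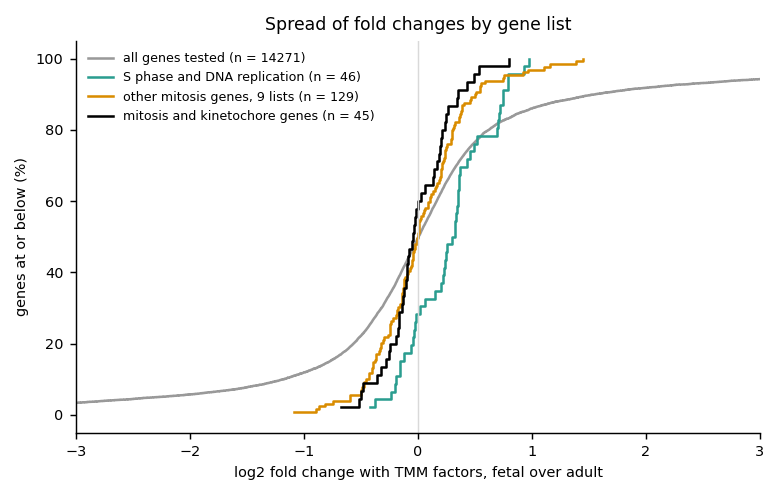
Cumulative share of genes (%) by log2 fold change with TMM factors, fetal over adult organoids, for all 14271 genes tested, 46 replication genes, 129 tested genes of 9 other mitosis lists and the 45 mitosis and kinetochore genes. The curve of the 45 is steep around its median of -0.05, and the replication curve lies to its right, with a median of 0.31.

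Beyond the 45, 129 of 130 other genes of mitosis in 9 lists were tested. With TMM 41 were higher and 41 lower (median log2 fold change 0.00). That is 31.8% each way, near the 33.9% and 32.7% of all genes tested. Under library totals the calls were 73 and 16 (56.6% and 12.4%), where all genes stood at 48.8% and 20.9%. Of 19 inner kinetochore and centromere-loading genes, 3 were higher and 9 lower with TMM (15.8% and 47.4%). Cenpq, a subunit of the constitutive centromere network, rose by 0.54 ± 0.12 SE on the log2 scale, and Cenpp, its partner, was lower by -0.89 ± 0.20 SE from a low level. In the outer kinetochore 5 of 14 were higher and 3 lower with TMM (35.7% and 21.4%). Ska2, of the complex that couples kinetochores to microtubule ends, rose from 16.6 and 16.7 to 30.7 and 32.8 CPM. Knl1, the platform on which BUB proteins gather, was lower, at 111 and 101 against 73.9 and 76.3 CPM (-0.50 with TMM, -0.26 with library totals).

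Of 5 checkpoint partners 3 were higher with TMM and none was lower, beside 33.9% and 32.7% of all genes tested. Mad2l2, a MAD2 relative also known from DNA repair, rose most (5.51 and 4.21 to 13.7 and 11.9 CPM). Of 17 genes of the anaphase-promoting complex, 9 were higher and 2 lower with TMM (52.9% and 11.8%). Cdc23 rose from 54.3 and 55.2 to 76.6 and 79.2 CPM, and its exons overlap those of Kif20a on the other strand in GENCODE M21. Reads in the shared bases can be told apart only by strand, and the extent of the overlap was not measured. Anapc13 was lower with TMM (-0.50) and not called with library totals (-0.25). Condensin and cohesin genes leaned lower with TMM, 11 of 22 against 3 higher, but not with library totals, where 6 were lower and 12 higher. Nipbl, the cohesin loader, had 198 and 193 against 142 and 139 CPM and was lower with both, and the condensin subunit Ncaph rose by 0.30 on the log2 scale.

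Regulators outside the 45 changed in both directions. Gtse1, a microtubule-associated protein that restrains p53 in G2, rose from 34.3 and 31.7 to 92.4 and 88.0 CPM (1.45 ± 0.06 SE, edgeR adjusted p = 8.01e-10). Cks1b, a small subunit of CDK complexes, rose from 21.7 and 22.1 to 48.7 and 49.2 CPM (1.16 ± 0.07 SE). Mybl2, the B-MYB factor that turns on late cell cycle genes, rose from 42.1 and 39.0 to 87.9 and 87.2 CPM (1.11 ± 0.06 SE, edgeR adjusted p = 5.60e-09). In the other direction, Wee1, the kinase that holds CDK1 inactive, fell by 0.74 ± 0.07 SE, and Rbl2, the p130 pocket protein of the DREAM repressor, fell by 0.82 ± 0.08 SE, both also lower with library totals and on TPM. Depdc1b fell by 1.09 on the log2 scale. Of 8 centriole genes 1 was higher and 3 were lower with TMM, beside 33.9% and 32.7% of all genes tested. The higher one was Nek2 (0.15, a call lost without adult replicate 1 or fetal replicate 2). Of the lower ones, Cep152 (-0.40) was not called with library totals.

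Longer members tended to have lower fold changes. Lengths were taken as the ratio of count to TPM relative to the median gene, and the Spearman correlation with the TMM fold change was -0.37 over the 45 genes and -0.04 over 13397 genes with a length, given as a description because genes share the same 4 libraries. In 3 equal bins of length, 1 of 14 members was lower in the shortest, 7 of 19 in the middle and 8 of 12 in the longest, where 28.1%, 32.7% and 40.1% of all genes were lower. With a length offset in the edgeR fit, 12 members were higher and 20 lower; Cdk1, Bub1, Bub1b and Kif20a were no longer called, and Kif23, Cdc20, Anln and Kif11 kept their calls. The part of length in the members' changes was not tested further.

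**Figure D5:**
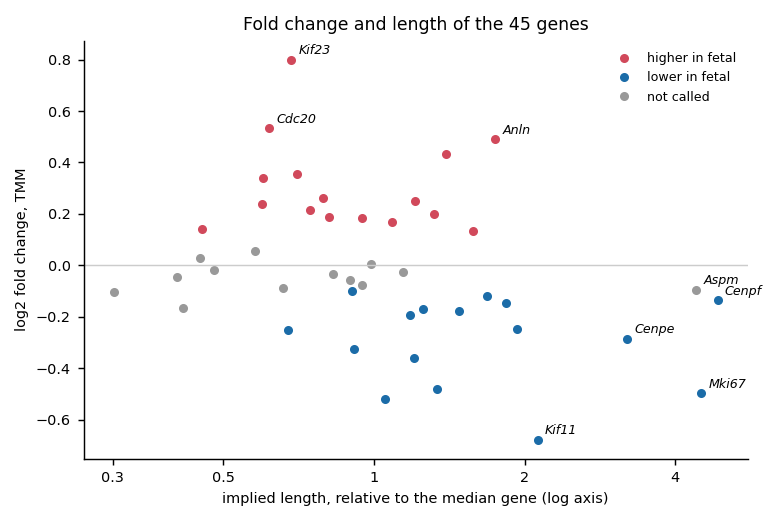
TMM log2 fold change of the 45 genes against their implied length relative to the median gene (log axis), coloured by call. Mki67 and Cenpf at 4.51 and 4.86 times the median gene lie below 0, whereas Anln at 1.75 times lies at 0.49.

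Counts of some members may hold reads of other genes. Estimated counts were not whole in at least 1 library for 17 of 45 members, which can arise where RSEM shares reads with other genes or copies. For Cdc20, Kif22, Nusap1 and Top2a this held in 1 library alone, and the size of the remainder was not measured. Exons of 12 members overlap a gene on the other strand in GENCODE M21, among them Ccna2, Cdc25b, Cdc20, Ube2c, Plk1, Kif20a and Nusap1, and the strand setting of the counting was not given in the sources used here. Ccnb1, Ccnb2, Kif4 and Kif22 have a named pseudogene. The values of these genes are uncertain to that extent.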

How the data were processed

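Poly-A RNA of 4 organoid libraries was sequenced with a directional kit, per the labels' protocols. The authors deposited a table of estimated counts, which RSEM does not normalize, and a table of TPM, both by Ensembl gene, per the file headers. The submitters' processing notes name STAR 2.7.3a, RSEM 1.3.3, Trim Galore and FastQC, and the builds GRCm39 and mm10. The build and strand setting behind the tables were not given in the sources used here. Of 55416 identifiers 52083 were named through the supplied table of gene names, and overlaps were read from GENCODE M21; the 3333 others, with 0.854% of counts, stayed in totals and tests.

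Estimated counts were rounded and tested with edgeR 4.0.16 (R 4.3.3; TMM, filterByExpr, quasi-likelihood F-test, group term alone, Benjamini-Hochberg adjusted p under 0.05 over 14271 genes). Standard errors are the absolute log2 fold change over the square root of F. TMM factors were 0.918 and 0.919 in adult and 1.10 and 1.08 in fetal libraries. Replicates differed by more than sampling noise (chi-square per degree of freedom 3.30 and 2.81), which does not show whether they come from separate animals or cultures. All 4 libraries were counted separately. The lowest mean of a member was 21.2 CPM. Standard errors with TMM were 0.07 for Ttk, Nuf2 and Cdc25b, and 0.03 and 0.04 for the far more counted Top2a and Mki67. Depth may thus limit the calls of members at low levels, which was not tested. On data simulated over 13861 genes, of which 200 were changed, edgeR recovered 58% of 1.25-fold, 84% of 1.5-fold and 100% of 2-fold changes. False calls were 7.57% of its calls there. In the real data 66.5% of genes were called, far more than were changed in the simulation, so these rates may not hold for them. Alternatives were DESeq2 1.42.0, limma 3.58.1 on log2(TPM + 1), other scalings, filters, a replicate block, a length offset and single libraries left out.

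Named members were, in each of 9 roles, the largest rise, the largest fall and the highest TPM, and those whose called sign differed between scalings; in other lists, the largest rise and fall at 5 CPM or more, and the 2 highest markers. Other members were named to account for all 45. The members and lists were chosen with earlier results of these data known.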

Additional observations from a re-analysis of the deposited data

How the results depend on the processing

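The balance of calls depended on the scaling and the unit. With library totals 2976 genes in all were lower, and 31 mitosis genes were higher and 4 lower (median log2 fold change 0.20). Among genes named by rule and called with TMM, those that changed sign there were Ccna2 0.15, Ttk 0.076, Cenpf 0.11, Hmmr 0.13, Top2a 0.10 and the stress gene Egr1 0.022. With limma on log2(TPM + 1), 1796 genes in all were lower, 33 members higher and 1 lower (median 0.38), and of the same genes those that changed sign were Ccna2 0.41, Ttk 0.20, Nuf2 0.086, Cenpa 0.21, Cenpf 0.26, Hmmr 0.24, Top2a 0.33 and Egr1 0.16. With no filter on TPM these 9 values, the median included, were equal, with 1728 genes in all lower, 30 members higher and 1 lower. With a pseudocount of 0.1 the counts were 1752, 33 and 1 (median 0.39), and the values were Ccna2 0.41, Ttk 0.21, Nuf2 0.088, Cenpa 0.21, Cenpf 0.27, Hmmr 0.25, Top2a 0.34 and Egr1 0.17. Ube2c, not called with TMM (-0.05), was at 0.20 with library totals and 0.34 on each TPM scale. The length offset gave a median of -0.12. The cause of these shifts was not tested.

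With single libraries left out, 12 to 16 members were higher and 12 to 15 lower, the median lay between -0.084 and -0.0046, and 4447 to 4583 genes in all were higher and 4180 to 4463 lower. An arm left with 1 library is assumed there to vary like the other. Leaving libraries out under library totals, an alternative chosen after seeing the data, gave 25 to 27 members higher and 4 to 5 lower. DESeq2 size factors, upper-quartile factors, totals without mitochondrial and top genes, the DESeq2 test, no filter and a stricter filter kept 15 or 16 of the 16 higher members and 12 to 16 of the 16 lower ones. Replicate numbers did not pair the libraries (correlation of deviations -0.01 over 14271 genes). With a replicate block 16 members were higher and 16 lower, the same genes as without it, with a median of -0.05.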
